A study of Mus musculus with 16 samples.

Results

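The hair shaft keratins and the keratin-associated protein (Krtap) genes were followed through 16 libraries of whole mouse skin. Members were every row of the expression table whose symbol starts with Krtap or is one of 13 hair keratin symbols (Krt31, Krt32, Krt33a, Krt33b, Krt34, Krt35, Krt36 and Krt81 to Krt86), provided that any library had a value over 0. This gave 67 of the 32078 genes listed, 12 keratins and 55 Krtap genes, and Krt85 had no row. At the margin of that rule, Krtap5-1, Krtap9-5 and Krtap24-1 entered on a value of 1.63 in 1 library each.

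Keratins of the hair shaft are paired from an acidic type I chain (Krt31 to Krt36) and a basic type II chain (Krt81 to Krt86), and together they form the intermediate filaments of cortex and cuticle cells. Krtap proteins, rich in cysteine or in glycine and tyrosine, embed and cross-link those filaments. Shaft cells make both only while a follicle is growing a hair, and the inner root sheath that moulds the shaft is made in the same phase from other keratins such as Krt25, Krt27 and Krt71. Krt32 and Krt82 are known as cuticle keratins, Krt35 as a keratin of the matrix and early shaft, Krt31, Krt33a, Krt33b, Krt34, Krt81, Krt83 and Krt86 as cortex keratins, and Krt84 and Krt36 are also known from epithelia outside the hair, such as tongue and nail.

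The mice were 7 weeks old, and the labels give a topical treatment of 4 days while the library titles run to day 5. The design text of the series describes another experiment, on sorted follicle stem cells after fatty acids or ethanol, so what these libraries are rests on the sample labels, which give whole skin. By their titles the libraries form 8 groups of 2, with SDS alone or SDS plus Topsym, each at days 0, 1, 3 and 5. The labels expand neither name; SDS commonly stands for the detergent sodium dodecyl sulfate, and Topsym is known as a preparation of the corticosteroid fluocinonide. No group without SDS exists at days 1, 3 or 5, and the sources used here do not give the strain, what each day 0 group received, or whether each library is a mouse of its own; p-values measure the spread between these libraries. Values below are the authors' normalised read counts; a normalised value is proportional to reads per library, and comparisons between genes use the value per kilobase of exon.

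Epidermal, follicle and dermal genes were present in every group, as the label of whole skin implies, but in changing amounts. Libraries held 15199656 to 32066246 reads. The 4 libraries of day 5 had 19885 to 20774 genes with a read, against at least 22875 in the others. The summed value of 6 dermis and fat genes was 209306 at day 0 and 11513 at day 5 of SDS alone, and 292354 and 4895 with Topsym. In bulk skin, fewer cells of a type and less RNA per cell cannot be told apart.

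The 2 libraries labelled day 0 with Topsym stood apart from the other 14. Each of the 10 inner root sheath genes on a marker list was higher there than in day 0 without Topsym on average, and their summed value was 18257 ± 32.8 (SD, n = 2) against group means of 161 to 858 elsewhere. At day 0 the list of 7 sebaceous gland genes was lower with Topsym than without (39615 ± 190 against 83804 ± 385), and so was the list of 6 skeletal muscle genes (138163 ± 2404 against 395170 ± 3851). Comparisons that use this group are therefore given apart from those that do not, and whether these differences bear on the members was not tested.

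The members sit in clusters. On chromosome 11, 22 Krtap genes and 7 type I keratins (Krt31 to Krt36) lie between bases 99550130 and 100105626 of GRCm38, on chromosome 16 there are 23 Krtap genes between 88610705 and 89571183, and on chromosome 15 the 5 type II keratins lie between 101459061 and 101550667. The other Krtap genes are on chromosomes 7 (5), 10 (3) and 1 (2). All 67 were found in GENCODE M21, which gave these positions.

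The 100 bases before the start are shown for 8 members that stand for the patterns described below: Krtap3-2 and Krt32, which had reads in every library, as had Krt84 and Krtap3-3; Krtap8-1, Krt33b and Krt34, which had reads only in day 0 with Topsym; Krt31, which was highest there but had some reads elsewhere; and Krt84 and Krt36, whose windows lack the motif. The sequences are RefSeq's for GRCm38.p6, read 5′ to 3′ on the gene's strand, which is the minus strand for all 8. Capitals mark TATAAA, the common form of the TATA box.
Krtap3-2, chr11:99556854-99556953: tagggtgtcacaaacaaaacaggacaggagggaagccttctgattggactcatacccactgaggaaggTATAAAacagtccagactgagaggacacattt
Krt32, chr11:100088270-100088369: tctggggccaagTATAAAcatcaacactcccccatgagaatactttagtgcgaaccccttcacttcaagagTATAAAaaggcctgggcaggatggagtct
Krtap8-1, chr16:89487953-89488052: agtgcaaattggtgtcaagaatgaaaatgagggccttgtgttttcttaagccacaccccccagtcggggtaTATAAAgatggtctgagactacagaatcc
Krt33b, chr11:100029869-100029968: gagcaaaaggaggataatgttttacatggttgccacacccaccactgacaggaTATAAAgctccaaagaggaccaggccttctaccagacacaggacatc
Krt34, chr11:100041555-100041654: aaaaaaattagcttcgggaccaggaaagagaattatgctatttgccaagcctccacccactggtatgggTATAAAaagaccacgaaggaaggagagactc
Krt31, chr11:100050552-100050651: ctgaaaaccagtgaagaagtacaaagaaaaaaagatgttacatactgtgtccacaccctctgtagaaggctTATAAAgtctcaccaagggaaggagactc
Krt84, chr15:101532821-101532920: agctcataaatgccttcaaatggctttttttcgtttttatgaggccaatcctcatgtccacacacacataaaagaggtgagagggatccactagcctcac
Krt36, chr11:100105627-100105726: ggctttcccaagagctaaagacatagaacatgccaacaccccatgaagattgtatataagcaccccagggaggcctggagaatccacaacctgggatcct

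A promoter entry was found for 55 of the 67 members. TATAAA on the gene's strand, within bases 45 to 16 before the start, was present in 33 of these 55 (60.0%), against 2.36% of all 27025 promoters. Its first base lay 32 bases before the start in Krtap3-2, 29 in Krt31, Krt32 and Krtap8-1, and 31 in Krt34, and in Krt33b it lay at 47, outside that window. Members with 0 reads outside day 0 with Topsym held it in 24 of 36 entries (66.7%), and Krtap3-2, with reads in all 16 libraries, holds it too, so presence of these letters does not separate the patterns. Over 250 bases and both strands, CTTTGA was in 29.1% of members and 14% of all promoters, and CTTTGT in 27.3% and 16.5%; these are 2 spellings of the sequence that Lef1 and related factors bind. These are matches of letters, not binding sites.

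In 14 of the 16 libraries few members were expressed. Between 6 and 13 members had a read, and all members together took 8.26 to 29.8 of every 1000000 reads. The plot of members detected shows the contrast with the 2 libraries of day 0 with Topsym, where 58 and 65 of 67 members had reads and the share was 125 and 139 of every 1000000 reads. Of the 67 members, 41 (39 Krtap genes, Krt33b and Krt34) had 0 reads in all 14 other libraries. No library of the other groups came near those of day 0 with Topsym.

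**Figure D1:**
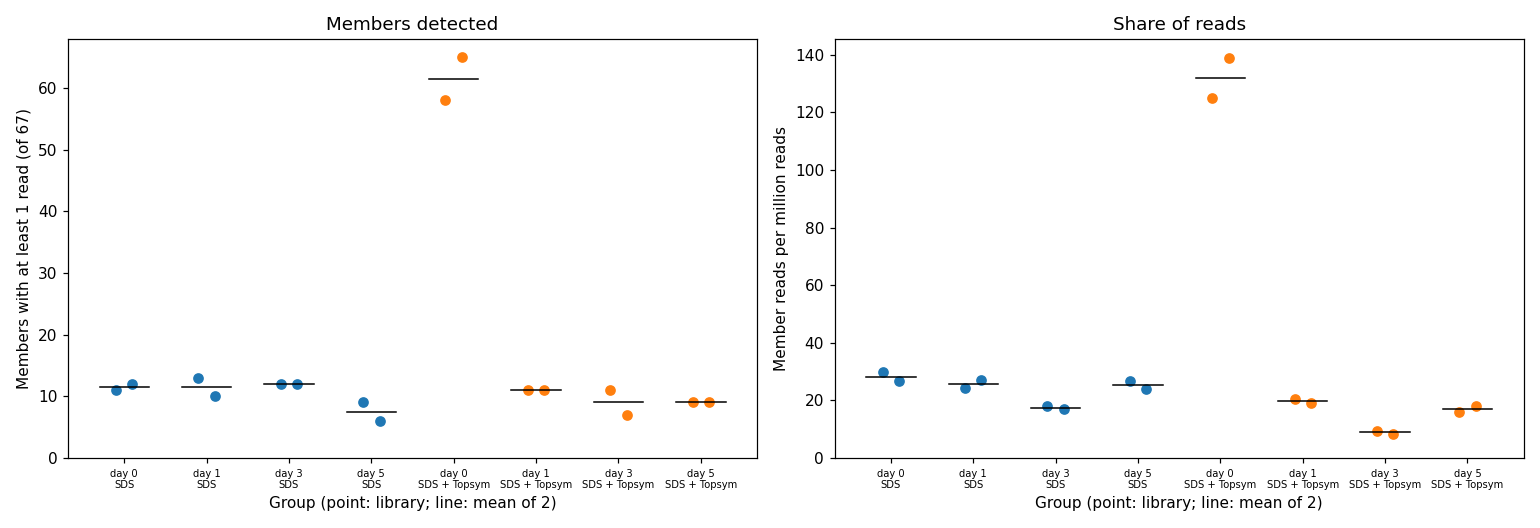
Left, the number of the 67 members with at least 1 read in each library; right, member reads per 1000000 reads; each point is a library and each line the mean of 2. Both libraries of day 0 with Topsym (58 and 65 members, 125 and 139 per 1000000 reads) lie above the other 14 (6 to 13 members, 8.26 to 29.8).

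Outside that group, Krtap3-2 and the keratins Krt32, Krt84 and Krt36 made up most of the signal. Per kilobase of exon, Krtap3-2 stood at 338 at day 0 of SDS alone, against 63.1 for Krt32, 44.7 for Krtap3-3, 18.0 for Krt36, 14.6 for Krtap17-1 and 9.19 for Krt84. At day 5 of SDS alone Krtap3-2 (317 per kilobase) was followed by Krt84 (84.7) and Krtap3-3 (54.0). With Topsym at day 5 the order of the first pair was turned, with Krt84 at 121 and Krtap3-2 at 105 per kilobase. Krtap3-2, Krtap3-3, Krt32 and Krt84 were the only members with reads in all 16 libraries, as the map of members by library shows.

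**Figure D2:**
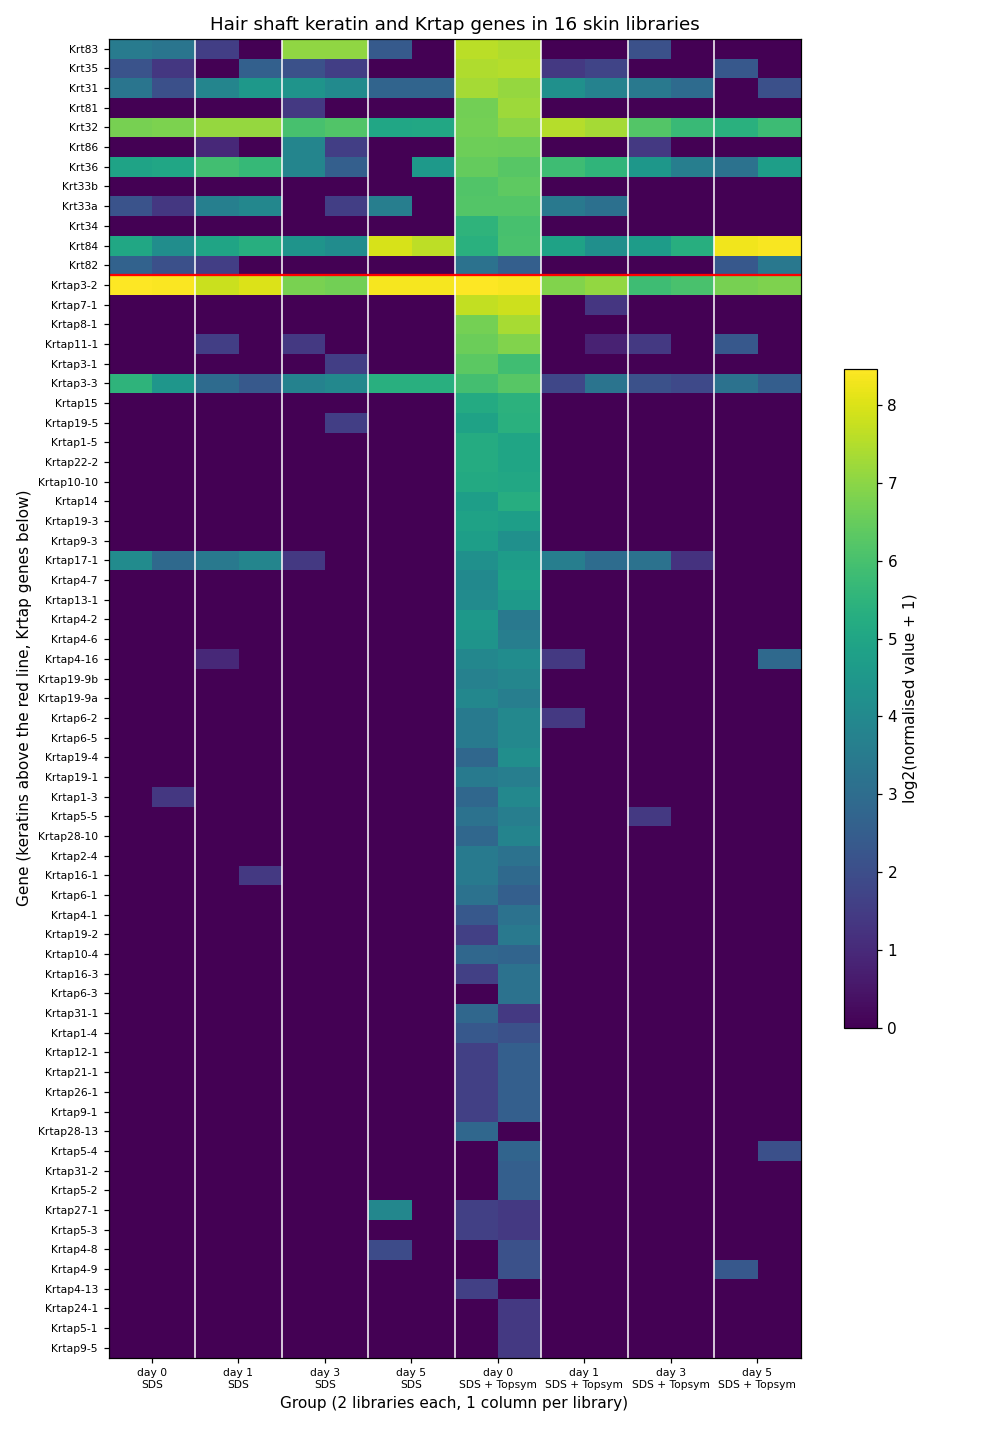
Rows are the 67 members, keratins above the red line and Krtap genes below, ordered by their mean in day 0 with Topsym; columns are the 16 libraries in 8 groups; colour is log2(normalised value + 1). The 2 columns of day 0 with Topsym are filled in nearly all rows, while Krtap3-2, Krtap3-3, Krt32 and Krt84 are filled in every column.

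Krtap3-2 (ENSMUSG00000069721; chromosome 11, 99555823 to 99556853, minus strand), a cysteine-rich shaft protein gene, fell and came back with SDS alone and stayed low with Topsym. Its values with SDS alone were 353 and 343 at day 0, 222 and 259 at day 1, 107 and 100.1 at day 3, and 326 and 329 at day 5. With Topsym they were 347 and 331 at day 0, 115 and 135 at day 1, 55.7 and 64.3 at day 3, and 105 and 112 at day 5. Day 0 libraries overlapped between the arms, and at each later day both libraries with Topsym lay below both without. In limma on log2(value + 1), fitted over all 16 libraries, the difference at day 0 was -0.04 ± 0.16 (SE, adjusted p = 0.911).

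The level with Topsym was 0.519 of that with SDS alone at day 1 (log2 difference -0.94 ± 0.16, adjusted p = 8.63e-04), 0.581 at day 3 (-0.78 ± 0.16, adjusted p = 7.27e-04) and 0.331 at day 5 (-1.59 ± 0.16, adjusted p = 6.27e-07). From day 3 to day 5 Krtap3-2 rose in both arms, 3.17-fold with SDS alone (log2 difference 1.65 ± 0.16, adjusted p = 1.09e-07) and 1.81-fold with Topsym (0.84 ± 0.16, adjusted p = 2.11e-04). Against day 0 of SDS alone, day 3 was at 0.297 of the level (-1.74 ± 0.16, adjusted p = 1.02e-07), and day 5 was not distinguished from day 0 (-0.09 ± 0.16, adjusted p = 0.639). The change from day 0 to day 5 differed between arms by -1.55 ± 0.22 on the log2 scale (adjusted p = 4.95e-05). At day 3 that difference was -0.74 ± 0.22 (adjusted p = 0.0152), and without the first library of day 3 with Topsym it was -0.64 (adjusted p = 0.0624). The fall at day 1 of SDS alone (-0.53 ± 0.16, adjusted p = 0.0199) passed only with both day 0 libraries and the first day 1 library in the fit; without one of them the difference was -0.51, -0.55 and -0.42.

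Krtap3-3 (ENSMUSG00000069722; chromosome 11, 99550130 to 99550865), next to Krtap3-2 and of the same family, had values of 44.9 and 20.8, 6.80 and 4.20, 12.5 and 14.6, and 39.8 and 39.7 at days 0, 1, 3 and 5 of SDS alone. With Topsym they were 60.3 and 75.6, 2.45 and 8.51, 3.27 and 2.68, and 8.07 and 4.79. At day 5 it stood at 0.162 of the level with SDS alone (log2 difference -2.49 ± 0.57, adjusted p = 0.00194; -2.81 to -2.17 when 1 library was left out), and both libraries with Topsym were below both without. At day 3 the difference was -1.87 ± 0.57 (adjusted p = 0.0138), and it did not pass without the second library of either arm (-1.77 and -1.76). With SDS alone its fall at day 1 (-2.31 ± 0.57, adjusted p = 0.00622) did not pass without the first day 0 library (-1.78) or the second day 1 library (-2.02), and its rise from day 3 to day 5 (1.49 ± 0.57, adjusted p = 0.0321) did not pass without any 1 of the 4 libraries. Of the 50-base stretches in Krtap3-3 transcripts, 41.3% also occur in other genes, nearly all in Krtap3-2, so some reads of the pair may not be assigned to one gene.

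**Figure D3:**
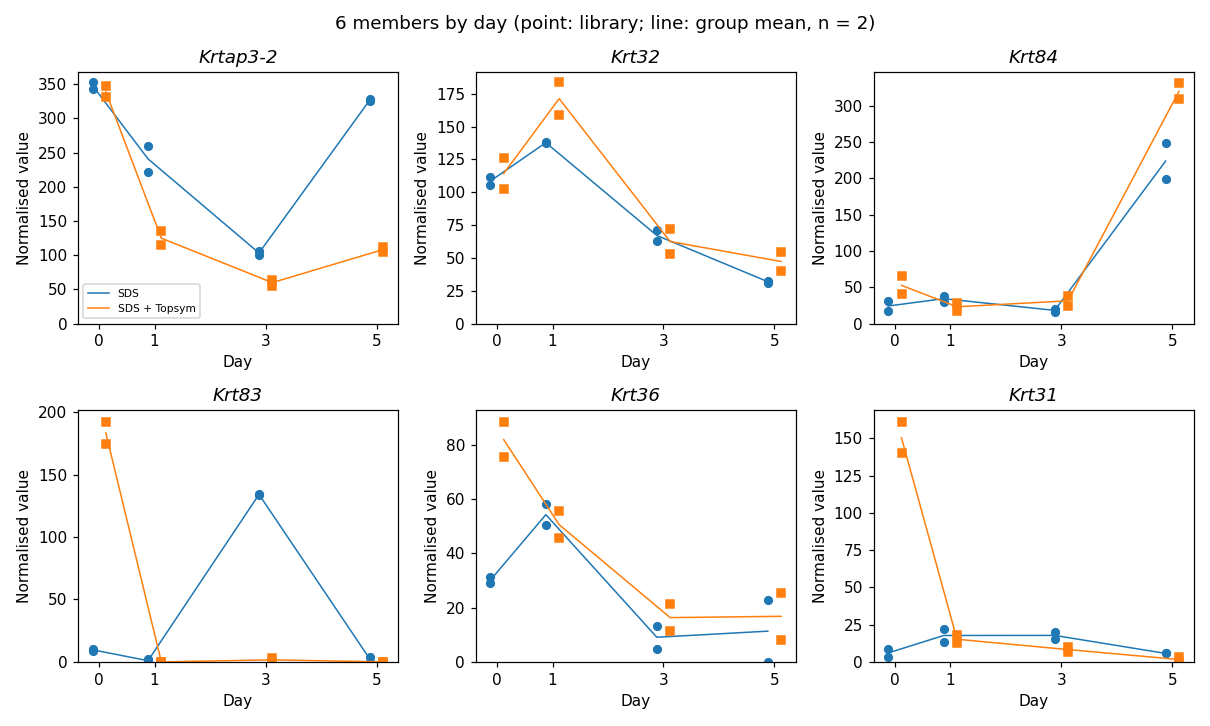
Normalised values of 6 members by day; blue circles are libraries with SDS alone, orange squares libraries with SDS and Topsym, and lines join group means (n = 2). Krtap3-2 lies lower with Topsym at days 1, 3 and 5 and not at day 0, Krt84 is high at day 5 in both arms, and Krt83 is high at day 3 of SDS alone and at day 0 with Topsym.

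Krt84 (ENSMUSG00000044294; chromosome 15, 101525026 to 101532820), a type II keratin, was the only member tested that rose from day 0 to day 5 in both arms. Its values with SDS alone were 31.7 and 16.8, 30.1 and 38.6, 19.98 and 16.5, and 249 and 198 at days 0, 1, 3 and 5, and with Topsym 40.2 and 65.0, 28.6 and 17.8, 24.6 and 38.2, and 309 and 331. Day 5 lay above every earlier library in both arms. Against day 0 it was 9.22-fold higher with SDS alone (log2 difference 3.21 ± 0.38, adjusted p = 1.56e-06), and against day 3 it was 12.3-fold higher (3.54 ± 0.38, adjusted p = 4.93e-07).

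With Topsym the rise of Krt84 from day 3 to day 5 was 10.2-fold (log2 difference 3.34 ± 0.38, adjusted p = 1.08e-06). At day 5 the 2 arms differed by 0.52 ± 0.38 (adjusted p = 0.288), and the change from day 0 to day 5 differed between them by -0.59 ± 0.54 (adjusted p = 0.441), which does not show that they were alike. Keratins of the epidermis were also higher at day 5: Krt16, a keratin of the companion layer and of stressed epidermis, averaged 1783 at day 0 and 255911 at day 5 of SDS alone. Whether this and the rise of Krt84 belong together was not tested. No 50-base stretch of Krt84 occurs in another gene.

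Krt32 (ENSMUSG00000046095; chromosome 11, 100080848 to 100088226), the type I cuticle keratin, was lower at day 5 than at day 0 in both arms. With SDS alone it stood at 106 and 111 at day 0, 138 and 138 at day 1, 63.3 and 71.0 at day 3, and 31.3 and 32.6 at day 5; with Topsym at 103 and 126, 184 and 159, 72.0 and 53.0, and 40.3 and 54.3. All day 5 libraries were below all day 0 libraries. At day 1 both libraries of each arm were above both of its day 0, without passing the test (log2 difference 0.34 ± 0.25, adjusted p = 0.368, with SDS alone and 0.58 ± 0.25, adjusted p = 0.0761, with Topsym), and the arms overlapped at days 0 and 3. Day 5 stood at 0.294 of day 0 with SDS alone (log2 difference -1.73 ± 0.25, adjusted p = 1.31e-05) and also lower than day 0 with Topsym (-1.26 ± 0.25, adjusted p = 2.84e-04). At day 3 of SDS alone the difference was -0.69 ± 0.25 (adjusted p = 0.0317), and it was -0.61 to -0.77 and did not pass without any 1 of the 4 libraries.

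Topsym made no difference to Krt32 that passed the test at any day. The closest was day 5, at 0.54 ± 0.25 (adjusted p = 0.0916). Krt32 overlaps Gm11571 on the other strand, and the sources used here do not say if reads were counted by strand.

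Krt83 (ENSMUSG00000067613; chromosome 15, 101485130 to 101491512), a type II cortex keratin, was high at 1 time point of SDS alone. Its values were 10.6 and 8.82 at day 0, 1.94 and 0 at day 1, 134 and 134 at day 3, and 4.27 and 0 at day 5. With Topsym it stood at 192 and 175 at day 0, 0 in both libraries at days 1 and 5, and 3.27 and 0 at day 3. At day 3 both libraries of SDS alone were above every library but those of day 0 with Topsym. Day 3 was 13.8-fold higher than day 0 of SDS alone (log2 difference 3.66 ± 0.84, adjusted p = 0.00159). At day 3 it stood with Topsym at 0.0122 of the level without (95% counting interval 0.00146 to 0.0447, on 4 reads; log2 difference -6.03 ± 0.84, adjusted p = 1.63e-05), a difference that ranged from -7.08 to -4.98 when 1 library was left out.

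The other type II cortex keratins did not share this level at day 3 of SDS alone. Krt86 had values of 13.3 and 1.94 there, all other libraries of SDS alone held 0 to 0.971, and Krt81 had values of 1.67 and 0. Krt86 rested on 18 reads, at least 3.21-fold over day 0, and its call against day 0 (adjusted p = 0.0132) did not pass without the first day 3 library (adjusted p = 0.191) or without either day 0 library (adjusted p = 0.0541 and 0.0538). Of the 50-base stretches of Krt83, 22.1% occur in other genes, against 37.7% in Krt81 and 43.3% in Krt86, so most of Krt83 can be told from its neighbours. At day 0 with Topsym, Krt83, Krt81 and Krt86 stood side by side at 99.6, 59.2 and 48.6 per kilobase, against 72.8, 0.393 and 3.89 at day 3 of SDS alone. The summed inner root sheath list was 161 at that day, below its 305 at day 0.

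Krt36, Krt31, Krt33a and Krtap17-1 had low values throughout SDS alone. Krt36 (ENSMUSG00000020916) stood at 29.1 and 31.3, 58.3 and 50.4, 13.3 and 4.86, and 0 and 22.7 at days 0, 1, 3 and 5. Krt31 (ENSMUSG00000048981), a cortex keratin, stood at 8.81 and 3.21, 13.6 and 21.8, 19.98 and 15.6, and 5.69 and 5.67. Krt33a (ENSMUSG00000035592), its neighbour, stood at 3.52 and 1.60, 11.7 and 14.3, 0 and 1.94, and 11.4 and 0. All 3 were higher at day 1 than at day 0 in both libraries, but none passed the test (log2 difference 0.83 ± 0.98, adjusted p = 0.608, for Krt36, 1.51 ± 0.65, adjusted p = 0.104, for Krt31 and 2.02 ± 0.93, adjusted p = 0.129, for Krt33a).

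The call for Krt36 at day 5 of SDS alone (-2.68 ± 0.98, adjusted p = 0.0242) rested on a library at 0, and without it the difference was -0.40 (adjusted p = 0.613); it also failed without either day 0 library (-2.73 and -2.63). Krtap17-1 (ENSMUSG00000078252) stood at 15.9 and 6.41 at day 0, 9.71 and 13.4 at day 1, 1.67 and 0 at day 3 and 0 in both libraries at day 5. It was at least 2.56-fold lower at day 5 than at day 0 (adjusted p = 8.23e-04). At day 3 its ratio to day 0 was 0.0822 (95% counting interval 0.00193 to 0.547), a call that did not pass without the first day 0 library (log2 difference -2.18) or the second day 3 library (-2.07).

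Counts of members past the threshold (adjusted p under 0.05) can be read only for those that could both pass and fail it. Genes were tested if a value of at least 10 occurred in at least 2 libraries; 35 members passed (11 keratins, 24 Krtap genes) and 32 did not, Krt82 among them. Of the 35, 26 passed only through day 0 with Topsym, so they had to be higher there. In comparisons without that group they had few or no reads and could hardly pass. The other 9 were Krt31, Krt32, Krt33a, Krt36, Krt83, Krt84, Krtap3-2, Krtap3-3 and Krtap17-1. Among all 19189 genes tested, calls were frequent, and the share of all genes called is given beside each count.

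With SDS alone, 0 members rose and 3 fell at day 1 (Krt83, Krtap3-2 and Krtap3-3), while 26.2% of all genes were called (12.8% higher, 13.5% lower); with each of the 4 libraries left out in turn the count was 0 to 2. At day 3, 2 rose (Krt83 and Krt86) and 3 fell (Krt32, Krtap3-2 and Krtap17-1), while 49.6% of all genes were called (25.4% higher, 24.2% lower); the count was 3 without any 1 library and 8 by edgeR on recovered reads. At day 5, Krt84 rose and 4 fell (Krt32, Krt36, Krt83 and Krtap17-1), while 66.5% of all genes were called (30.7% higher, 35.8% lower); it was 3 to 4 without 1 library and 3 by edgeR. Krt83 fell on few reads, 2 at day 1 and 3 at day 5, and neither call passed without either day 0 library (log2 difference -2.52 and -2.75 at day 1, -2.10 and -2.33 at day 5), nor without the library at 0 reads (-1.86 at day 1 and -1.02 at day 5). From day 3 to day 5, 3 rose (Krt84, Krtap3-2 and Krtap3-3) and 3 fell (Krt32, Krt83 and Krt86), while 63.4% of all genes were called (28.9% higher, 34.5% lower). The fall of Krt86 did not pass without the first day 3 library (-1.56). Of the 9 members that passed the filter without day 0 with Topsym, 3 were called at day 1, 4 at day 3, 5 at day 5 and 5 between day 3 and day 5. Among the rest, with few or no reads in these groups, only Krt86 was called.

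With Topsym against SDS alone at the same day, Krtap3-2 was the only member called at day 1 (9.80% of all genes called, 5.51% higher and 4.29% lower). At day 3 it was joined by Krt83 and Krtap3-3 (43.8% of all genes called, 20.8% higher and 22.9% lower; 5 members by edgeR and by DESeq2). At day 5 Krtap3-2, Krtap3-3 and Krt31 were called (46.8% of all genes, 22.6% higher and 24.2% lower). All of these were lower with Topsym. Krt31 at day 5 rested on 2 reads against 8 (ratio 0.314, 95% counting interval 0.00637 to 3.17; adjusted p = 0.0409) and did not pass by edgeR (adjusted p = 0.246) or without the first library with Topsym (log2 difference -0.67 in place of -1.71) or without either library of SDS alone (-1.70 and -1.71).

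At day 0, libraries with Topsym held the shaft genes that the others lacked. The 12 keratins summed to 1192 ± 56.6 with Topsym and 188 ± 14.3 without, and the 55 Krtap genes to 1487 ± 126 and 393 ± 29.8. Over all groups other than day 0 with Topsym, group means were 121 to 394 for keratins and 69.4 to 393 for Krtap genes. Both libraries of day 0 with Topsym were above every other library for 51 of the 67 members (9 keratins and 42 Krtap genes), a pattern shown by 6.53% of the 19189 genes tested. Of these 51, 19 did not pass the filter and 26 passed it only through this group, so the count and that share have different bases. Of the 9 members that passed without this group 6 showed it, beside 6.12% of the 18945 genes that passed in the same way. The plot of summed values sets them beside the inner root sheath genes.

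**Figure D4:**
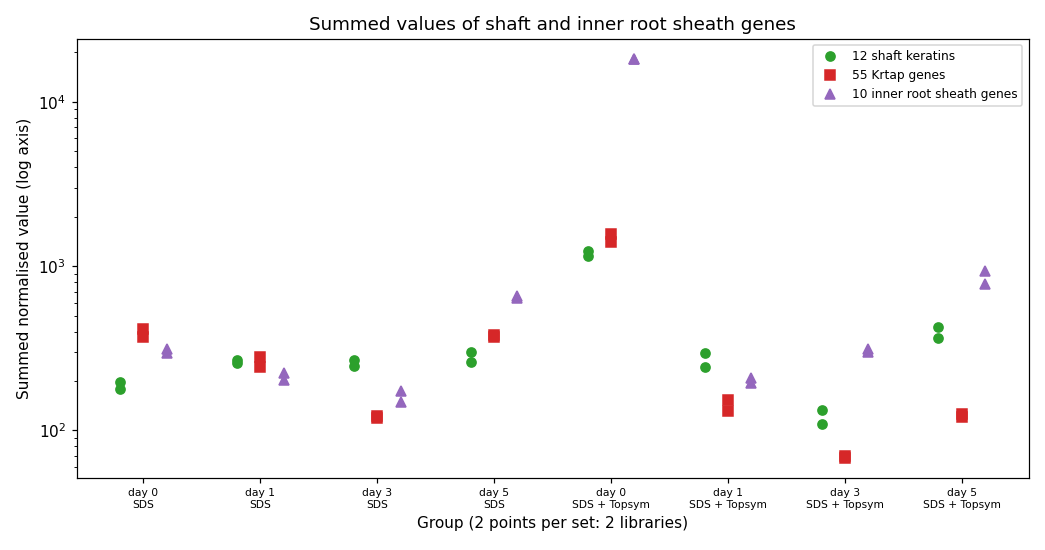
Summed normalised values of the 12 shaft keratins, the 55 Krtap genes and 10 inner root sheath genes in each library (2 points per set and group), on a log axis. All 3 sets are highest in the 2 libraries of day 0 with Topsym, where inner root sheath genes reach 18257 on average, keratins 1192 and Krtap genes 1487.

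Among the type I keratins, Krt35 (ENSMUSG00000048013; chromosome 11, 100092193 to 100096241), the early shaft keratin, stood at 175 and 184 in day 0 with Topsym and at most at 5.04 in any other library. It was 70.1-fold higher than at day 0 without Topsym, which had 6 reads (95% counting interval 23.7 to 344). Krt31 stood at 161 and 140, 25.0-fold higher (log2 difference 4.55 ± 0.65, adjusted p = 6.38e-05), a difference of 3.94 to 5.17 when 1 library was left out. Krt33a stood at 72.4 and 73.1, 28.4-fold higher, also over 6 reads (95% counting interval 9.38 to 141; log2 difference 4.43 ± 0.93, adjusted p = 0.00216; 4.03 to 4.82 when 1 library was left out). Krt33b stood at 71.4 and 81.3 and Krt34 at 44.2 and 62.6, with 0 reads in all other libraries, so that they were at least 30.5-fold and at least 21.6-fold higher. Of these genes no library outside the group reached the level of either library inside it.

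The other type I pair differed less. Krt32 differed by 0.07 ± 0.25 between the day 0 groups (adjusted p = 0.904), and its groups overlapped. Krt36 stood at 88.5 and 75.6, above all 14 other libraries and 2.72-fold over the 29.1 and 31.3 without Topsym, a difference that did not pass the test (log2 difference 1.41 ± 0.98, adjusted p = 0.367). Krtap3-2, Krt32, Krtap3-3 and Krt36, none of which passed this test, were the 4 members with most reads at day 0 without Topsym.

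Among the type II keratins, Krt83 stood at 192 and 175, 18.9-fold over day 0 without Topsym (log2 difference 4.11 ± 0.84, adjusted p = 0.00168). Krt81 (ENSMUSG00000067615) stood at 101 and 150.4, at least 50.9-fold higher, and Krt86 (ENSMUSG00000067614) at 96.5 and 94.3, at least 37.8-fold higher. Krt82, the type II cuticle keratin, did not pass the filter on low values, with 8.04 and 4.88 against 5.28 and 3.21. Krt84 stood at 40.2 and 65.0 against 31.7 and 16.8; its call (log2 difference 1.11 ± 0.38, adjusted p = 0.0493) did not pass without the second library of either group (0.67 and 0.77), nor in several other settings. Krt35, Krt33b, Krt34, Krt81 and Krt86 passed the filter only through day 0 with Topsym, so they had to be higher there. Of the cortex keratins that passed without it, Krt31, Krt33a and Krt83 were called higher. In the cuticle pair, Krt32 did not pass the test and Krt82 was not tested, while S100a3 of the cuticle, given below, was higher. No contrast between cortex and cuticle is therefore read from these values.

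Krtap genes of several families reached the level of the cortex keratins in day 0 with Topsym. Per kilobase of exon, Krtap7-1 stood at 347, Krtap3-2 at 329, Krtap8-1 at 232, Krtap3-1 at 114 and Krtap11-1 at 103, beside 99.6 for Krt83 and 95.1 for Krt31. Krtap7-1 and Krtap8-1, which encode glycine- and tyrosine-rich proteins, stood at 204 and 228 and at 103 and 164. Krtap8-1 had 0 reads in the other 14 libraries, and Krtap7-1 had 2. They were at least 86.2-fold and at least 54.3-fold higher than at day 0 without Topsym.

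Of the cysteine-rich families, Krtap11-1 stood at 93.5 and 115 in day 0 with Topsym, at least 41.8-fold higher, and Krtap3-1 at 80.4 and 57.7, at least 26.95-fold higher. Krtap15 stood at 35.2 and 42.3 and Krtap1-5 at 36.2 and 30.9, at least 15.5-fold and at least 13.2-fold higher. Krtap19-5, of the glycine- and tyrosine-rich group, stood at 28.1 and 40.6, at least 13.9-fold higher. Krtap17-1, at 18.1 and 24.4 against 15.9 and 6.41, did not pass the test (log2 difference 0.98 ± 0.77, adjusted p = 0.437), and neither did Krtap3-3 (1.11 ± 0.57, adjusted p = 0.200). Krtap3-1 thus differed from Krtap3-2 and Krtap3-3 in having almost no reads outside the group, though the 3 genes are neighbours.

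Every one of the 55 Krtap genes had reads in at least 1 library of day 0 with Topsym, and 44 had reads in both. Of the 55, 39 had 0 reads in all 14 other libraries and are members only through this group. For these 39, reads in at least 1 of its libraries were set by the membership rule. By family, the 2 libraries held 485 and 571 reads of the 3 Krtap3 genes, 203 and 280 of Krtap7-1, 102 and 202 of Krtap8-1, 100 and 160 of the 7 Krtap19 genes, 93 and 141 of Krtap11-1 and 77 and 97 of the 8 Krtap4 genes. The 5 Krtap5 genes, all on chromosome 7, had 10 and 31 reads and none passed the filter. In the other 14 libraries together the Krtap3 genes had 2866 reads, Krtap17-1 had 89, and no other family had more than 11. Krtap27-1 was an exception to the direction, with 10 reads in the first library of day 5 of SDS alone and 4 in day 0 with Topsym.

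In limma, 30 of the 35 members tested were higher in day 0 with Topsym than without and 0 lower, while 22.0% of all genes were called (10.8% higher, 11.2% lower). DESeq2 on recovered reads called 10 members and edgeR 31. Since 26 of the 35 entered the test through this group, the count is no support; of the 9 that did not, 4 were called (Krt31, Krt33a, Krt83 and Krt84), while 10.8% of all genes were called higher. Where a gene had 0 reads in most libraries, its estimated spread came mostly from libraries at 0, so its standard error was small for the level at which it was seen.

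After day 0, both libraries of every later day with Topsym were without most members again. At day 1, 0 members were higher and 32 lower than at day 0 with Topsym, at day 3 0 and 33, and at day 5 1 (Krt84) and 34, while 40.8% (20.3% higher, 20.5% lower), 55.2% (27.0% and 28.2%) and 70.2% (32.8% and 37.5%) of all genes were called. The 26 members that passed the filter only through day 0 with Topsym had to be lower here, so nothing is read from these counts. Of the other 9, 6 were lower at day 1, 7 at day 3 and 8 at day 5, and Krt84 was higher at day 5. At day 1 Krt33a did not pass when any 1 library compared was left out (log2 difference -3.08 to -2.77). Krt84 at day 1 did not pass without the second library of either group (-0.80 and -0.82). Nor, at day 3, did Krt32 (-0.72 and -0.65) or Krtap17-1 (-2.04 and -1.26). Krt36 at day 5 did not pass without either day 0 library (-2.30 and -2.53) or the first day 5 library (-1.64). Between day 3 and day 5, 2 rose (Krt84 and Krtap3-2) and 2 fell (Krt31 and Krtap17-1), while 62.2% of all genes were called (27.1% higher, 35.1% lower); both falls rested on few reads. Without the first day 3 library neither passed (log2 difference -1.91 for Krt31 and -1.23 for Krtap17-1); Krt31 also failed without the first day 5 library (-1.12), and Krtap17-1 without either day 5 library. Krt31 stood at 18.0 and 12.4, 9.82 and 6.70, and 0 and 3.20 at days 1, 3 and 5, and Krt35 at no more than 4.03. Krt36 stood at 55.6 and 45.6, 21.3 and 11.4, and 8.07 and 25.6 at those days.

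The drop in this arm starts from the group that stands apart, and the values of day 0 without Topsym are another base for it. Against that base the later days with Topsym lay on both sides. At day 1 with Topsym Krt31 (18.0 and 12.4) and Krt33a (9.82 and 7.73) were above day 0 without Topsym (8.81 and 3.21, 3.52 and 1.60), while Krt83 was at 0 there and at 10.6 and 8.82 at day 0 without Topsym. The tests of the change from day 0 between arms, with 31 members past the threshold at day 3 (39.0% of all genes, 19.5% higher and 19.5% lower) and 30 at day 5 (34.9%, 17.3% higher and 17.7% lower), all with a lower change with Topsym, likewise rest on that group. By edgeR they were 11 and 5 and by DESeq2 18 and 12. Krtap3-2 is the member for which the 2 day 0 groups overlapped and the difference between arms passed at both days.

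Other genes of shaft formation were described by lists. Of 14 regulators of the shaft, 13 were tested: at day 0, 1 was higher with Topsym (Gata3, log2 difference 0.41 ± 0.05, adjusted p = 6.36e-06) and 2 lower (Prdm1 and Bmpr1a), with a median of 0.26 against -0.0036 over all genes. Hoxc13, a homeobox factor that drives shaft keratin genes, averaged 234 without and 310 with Topsym at day 0 and fell to 36.9 at day 5 of SDS alone (-2.63 ± 0.37, adjusted p = 9.10e-06). Foxn1, the factor lost in nude mice, averaged 352 and 420 at day 0 and rose to 687 at day 5 of SDS alone (0.96 ± 0.12, adjusted p = 2.66e-06). Lef1, a partner of beta-catenin in the matrix, averaged 49.4 and 84.2 at day 0 and 2.13 at day 5 of SDS alone. These 4 factors were read also in groups where most members were at 0. At day 0 the mean of each was higher with Topsym, and of the 4 only Gata3 passed the test. Hoxc13, Foxn1 and Lef1 were named after their values were seen. Prdm1 and Bmpr1a averaged 839 and 1863 without Topsym at day 0, and 617.5 and 1506 with it. Ovol1 (821 and 818) and Trps1 (335 and 292) also had lower means with Topsym. Means of the other regulators of the list were not lower with it. At day 5 of SDS alone the mean of Foxn1 was above that of day 0, and those of Gata3, Hoxc13 and Lef1 were below it. Whether any of them bears on the members was not tested.

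Of 10 other genes of shaft and cuticle, 9 were tested, and at day 0 6 were higher with Topsym and 1 lower (Liph). Padi3, an enzyme that converts arginine in shaft and sheath proteins, averaged 4.25 without and 215 with Topsym (log2 difference 5.39 ± 0.70, adjusted p = 2.45e-05). S100a3, a calcium-binding protein of the cuticle, averaged 13.8 and 177 (3.59 ± 0.76, adjusted p = 0.00232). Tgm3, a transglutaminase of shaft and epidermis, averaged 610 and 940 and reached 9545 at day 5 of SDS alone.

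The inner root sheath list gave 9 of 10 genes higher at day 0 with Topsym (median log2 difference 7.87). Krt71 averaged 5647 there and at most 2.48 in the other groups, Krt25 3832 and at most 4.27, and Krt27 1848 and at most 7.55. Tchh, trichohyalin, averaged 5214 against 222 at day 0 without Topsym. Of pigment cell genes 3 of 7 tested were higher (Dct 341 against 128, Pmel 223 against 84.4, and Mlana), and of 8 proliferation genes 7 were higher, by a median of 0.36. Of stem cell genes 2 were higher and 2 lower of 8, and no dermal papilla gene of 7 passed the test. All 7 sebaceous gland genes (Krt79, 1 of them, is also on the companion layer list) and all 6 muscle genes were lower, and whether any of these moved with the members for a common cause was not tested.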

How the data were processed

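Whole skin RNA of 16 libraries was sequenced (strand-specific kit per the labels). The submitters' processing notes name Trim Galore 0.6.7, HISAT2 2.2.1, featureCounts 2.0.3, DESeq2 2.11.40.8 and the mm10 build. The deposited table gives a normalised expression signal per gene. In each library 100% of values were whole multiples of a single step (within 1e-04), so the read counts behind the deposited values were recovered. In the first library of day 0 with Topsym the step is so close to 1 that whole reads there could not be checked independently. Even counts made up 69.9 to 76.8% of the low counts, so reads are not separate counts; folds and intervals therefore take 2 reads as 1 count (chosen after seeing the data), while edgeR and DESeq2 used the reads as recovered.

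Differences of log2(value + 1), from the authors' deposited signal, were fitted with limma 3.58.1 (R 4.3.3) over 8 groups (8 residual degrees of freedom) on the 19189 genes reaching 10 in 2 libraries. P-values were adjusted over all genes (Benjamini and Hochberg), with a threshold of 0.05. Other settings were a pseudocount of 4, TMM factors, a robust prior, the replicate block, dropping the filter, fitting only the libraries compared, leaving out each library, and edgeR 4.0.16 and DESeq2 1.42.0 on recovered reads, which called 5001 and 4923 genes between the day 0 groups (limma 4230). Leaving out day 0 with Topsym was added after seeing the data. Against groups at 0 reads, folds use a floor of 3 counts (6 reads) over the group; intervals and floors cover counting error only. Genes named were all keratins, the 10 highest Krtap genes, up to 5 rises and 5 falls of Krtap genes in each comparison, up to 4 genes of each list and the 10 genes most alike; Krtap27-1 and several genes of the lists (Hoxc13, Foxn1, Lef1, Padi3, S100a3 and Mlana) were added after their values were seen. Members, lists and rules were chosen with earlier results of these data known. On data simulated for day 1 of SDS alone (17880 genes), the fit recovered 36 of 67 changes of 1.5-fold, 47 of 67 of 2-fold and 60 of 66 of 4-fold. It made 8 false calls. In this simulation the changed genes all had a day 0 mean of at least 10, and the other groups were set alike. Far fewer genes were changed than were called in the data. Most members lay below that mean, so these figures do not describe the test of the members. Over all genes, libraries of 1 group differed by more than the counting error of separate reads (chi-square 3.13 to 6.98 for each degree of freedom). Where 2 reads make 1 count, counting error alone raises this value. For the members with enough reads (4 to 41 a group) it was 0.856 to 3.11.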

Additional observations from a re-analysis of the deposited data

Results flagged for a closer look

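The change from day 0 differed between the arms by a test of that difference (the interaction term of limma, adjusted over all genes) in 31 members at day 3 and 30 members at day 5, each with a lower change with Topsym. Among all genes, 39.0% were called at day 3 (19.5% lower) and 34.9% at day 5 (17.7% lower). Of the 35 members tested, 26 passed the filter only through day 0 with Topsym, so the member counts are no support. Of the other 9, 5 were called at each day. Among members that passed the filter without day 0 with Topsym, Krtap3-2 differed by -0.74 at day 3 and -1.55 at day 5 on the log2 scale, and Krtap3-3 by -2.98 and -3.61. Krt31 differed by -5.58 and -6.26, Krt33a by -5.20 and -6.24, and Krt83 by -10.14 and -5.31. When 1 library was left out, the differences at days 3 and 5 ranged from -3.52 to -2.45 and -4.14 to -3.07 for Krtap3-3, from -6.19 to -4.97 and -7.29 to -5.23 for Krt31, from -5.98 to -4.43 and -8.06 to -4.43 for Krt33a, and from -11.19 to -9.09 and -6.51 to -4.11 for Krt83. That of Krtap3-2 at day 3 did not pass without the first library of day 3 with Topsym (-0.64). For the keratins these differences start from the high values of day 0 with Topsym: Krt31 stood at 161 and 140 there and at 8.81 and 3.21 without Topsym. For Krt83 at day 3 the arms also differed at that day, with 134 and 134 with SDS alone and 3.27 and 0 with Topsym. For Krtap3-2 the day 0 groups overlapped (347 and 331, 353 and 343).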

How the results depend on the processing

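Among calls of the named members, no difference reversed in any alternative that gave an adjusted p. Other differences were not checked for direction. With a pseudocount of 4, 5 members were called at day 1 of SDS alone in place of 3. Without the filter, 52, 53 and 53 members were called at days 1, 3 and 5 against day 0 with Topsym, 48 at day 0 between arms, and 50 and 49 in the change from day 0 to days 3 and 5 between arms, since more members were tested. Most of the members so added had reads only in day 0 with Topsym, so these larger counts are no support. With only the libraries compared, 2 were called from day 3 to day 5 with Topsym. edgeR called 8 and 3 at days 3 and 5 of SDS alone, 2 from day 3 to day 5 with Topsym, 5 at day 3 between arms, and 11 and 5 in the change between arms; DESeq2 called 5 at day 1 of SDS alone, 10 at day 0 and 5 at day 3 between arms, and 18 and 12 in the change between arms. In the same comparisons and order, of 19189 genes edgeR called 10228, 12786, 11644, 9161, 8199 and 6516. DESeq2 called 5731, 4923, 8921, 8029 and 6484. The cause of the shifts in member counts was not tested. With each library left out in turn, counts were 0 to 2, 3 to 3 and 3 to 4 at days 1, 3 and 5 of SDS alone, 2 to 4 from day 3 to day 5 with Topsym, and 2 to 5 at day 5 between arms. Without day 0 with Topsym in filter and fit, counts at days 1, 3 and 5 of SDS alone were 2, 4 and 5, and 1, 3 and 2 between arms. TMM factors moved the median difference by at most 0.04. Depth limits members at 0 reads, for which lower bounds of the fold are given; with each read as a separate count, these bounds would be 2 times as high.

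The replicate block (number 1 or 2 as a term) left 29 in place of 30 members called at day 0 between arms, as Krt84 no longer passed (adjusted p = 0.0602), and changed no other call among the named members. Deviations of same-numbered libraries did not correlate between groups (highest r 0.030), so no effect shared by number was seen. This cannot show that same-numbered libraries are unpaired.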

Other observations

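Among genes that are not members, the pattern over the 16 libraries most like the members' mean log2(value + 1) was that of Lyg2 (Pearson r 0.994), Calhm4 (0.994), Gm11937 (0.993), Gm10229 (0.977), Krt73 (0.976), Krt71 (0.974), Gm49425 (0.970), Kcne1 (0.970), 1110025L11Rik (0.964) and Krt27 (0.958). These correlations use the mean of the 35 members that passed the filter, 26 of them only through day 0 with Topsym. They describe a single contrast, since the 2 libraries of day 0 with Topsym set them. Lyg2, a lysozyme-like gene, averaged 46.0 there and Calhm4, a channel gene of the calcium homeostasis modulator family, 18.6, each with 0 reads in the other 14 libraries. Kcne1, a potassium channel subunit, averaged 24.7 with 2 reads elsewhere.

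Chosen after their values were seen, among the 30 genes most alike were Isg15 and Mx1, which interferon induces. Isg15 averaged 923 in day 0 with Topsym, and its highest value in any other library was 144. Mx1 averaged 682, and its highest value elsewhere was 177.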
